A study of Chlamydomonas reinhardtii with 18 samples.

Results

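The second day of darkness was described in wild type Chlamydomonas reinhardtii (WT, strain CC-4532) by setting the libraries taken after 48 h of darkness against those taken after 24 h. The members are the 3 WT 48 h and the 3 WT 24 h libraries, chosen by the names of their columns, which make 6 of the 18 libraries of the series. Chlamydomonas reinhardtii is a unicellular green alga that swims with a pair of flagella. All cells grew in TAP, a medium that holds acetate, to mid-logarithmic phase under low light of about 30 µmol photons m-2 s-1, and were then kept in complete darkness. The other libraries are WT at 0 h, before the dark, and a knockout of the transporter gene CreTPT10 (tpt10b) at 0, 24 and 48 h, with 3 libraries in each group. The samples are labelled as biological replicates, and nothing says that they were separately grown cultures, so the p-values measure the spread between these samples.

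In darkness this alga can live on acetate, which is activated to acetyl-CoA, turned into sugars through the glyoxylate cycle and gluconeogenesis, and burned in the tricarboxylic acid cycle and the respiratory chain. It can also make chlorophyll without light and keep its photosynthetic machinery. Its flagella are built and maintained by intraflagellar transport, a traffic of protein trains driven by a kinesin outwards and a dynein inwards, and its cell wall is made of hydroxyproline-rich glycoproteins instead of cellulose. Further genes described here are known as responses to light and carbon dioxide: the LHCSR and PSBS proteins, which turn excess absorbed light into heat, and the carbon-concentrating mechanism, which brings bicarbonate to Rubisco when carbon dioxide is scarce.

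Levels are in TPM, a transcript abundance in which each value is divided by the gene's length, for nearly all genes a coding length, and scaled so that a library sums to the same total. A fold change is the difference of the mean log2(TPM + 1), WT 48 h minus WT 24 h, ± its standard error, so a positive value means higher at 48 h, and it understates the change of genes with low levels. "Rose" and "fell" are used for genes with an adjusted p under 0.05 in limma, fitted over all 18 libraries with Benjamini-Hochberg adjustment over the 14731 genes that reached 1 TPM in at least 3 libraries, of 17693 in the files. In bulk RNA fewer cells of a type and less RNA per cell cannot be told apart, and a share of the RNA says nothing of the amount per cell.

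WT 48 h replicate 2 stood apart from the other WT 48 h libraries. The correlation across genes of its log2(TPM + 1) values was 0.963 and 0.970 with replicates 1 and 3, which had 0.991 between them, and between 0.926 and 0.941 with the WT 24 h libraries. Genes are not independent replicates, and this value describes likeness only. Recovered reads lay between 59603478 and 78823417 in the 6 libraries, and reads were seen at 16316 genes in WT 48 h replicate 2, against 16901 and 16633 in the other WT 48 h libraries. Counts of rises or falls are therefore given with and without that library for nearly all lists, and a gene named below kept its call without it unless the sentence says otherwise.

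Between 24 and 48 h of darkness 6115 of 14731 genes changed, which is 41.5%. At 48 h 2472 genes were higher (16.8%) and 3643 were lower (24.7%), and the difference was at least 1 on the log2 scale for 634 of the higher and 648 of the lower genes. Without WT 48 h replicate 2, 3064 genes were higher (20.8%) and 2917 lower (19.8%), so that 51.2% of the calls were rises, against 40.4% with it. When every library was rescaled to a common centre, 3316 were higher (22.5%) and 2903 lower (19.7%), and 53.3% of the calls were rises. The median over all genes was -0.10 as deposited and 0.02 after rescaling, so a small fall of a group can lie within that shift. With and without that library 5000 genes kept both the call and the direction, and 0 genes were called in the opposite direction. The balance of rises and falls was therefore not settled by these data, whereas the genes with changes of at least 1 were nearly all kept, 628 of 634 higher and 633 of 648 lower. The libraries of the 2 groups did not overlap for 48.3% of all genes tested. The counts in the lists below stand beside 16.8% rises and 24.7% falls over all genes. Without WT 48 h replicate 2 these shares are 20.8% and 19.8%.

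Among the named genes with a symbol the changes ran from -2.80 for PRR1 to 3.94 for FAP346. PHC66, a pherophorin of the cell wall protein family, had 437, 681 and 530.0 TPM in the WT 48 h libraries, against 46.4, 43.05 and 44.03 TPM in the WT 24 h libraries, a change of 3.57 ± 0.28 (limma, adjusted p = 5.51e-08). FAP346, a flagellar associated protein, had 37.9, 30.8 and 38.2 TPM at 48 h, against 1.33, 1.74 and 1.10 TPM at 24 h, a change of 3.94 ± 0.16 (limma, adjusted p = 2.13e-11). Both genes were higher in every 48 h library than in any 24 h library. The largest rises and falls were chosen among genes whose groups did not overlap. Their lack of overlap, here and below, is therefore no further result. FAS2, which neighbours FAP346 in the RefSeq gene table (assembly v5.5), had 22.7, 24.6 and 21.7 TPM at 48 h, against 1.07, 0.919 and 0.756 TPM at 24 h, and whether the neighbours share reads was not tested. At the other end, FOX1, the multicopper ferroxidase of iron uptake, had 31.1, 18.6 and 28.7 TPM at 48 h, against 123, 146 and 144 TPM at 24 h, a change of -2.38 ± 0.19 (limma, adjusted p = 8.29e-08). PRR1 had 3.15, 1.07 and 3.45 TPM at 48 h, against 16.5, 30.9 and 22.1 TPM at 24 h, a change of -2.80 ± 0.28 (limma, adjusted p = 1.10e-06). For both the 48 h values lay below every 24 h value, and WT 48 h replicate 2 was the lowest library.

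**Figure D1:**
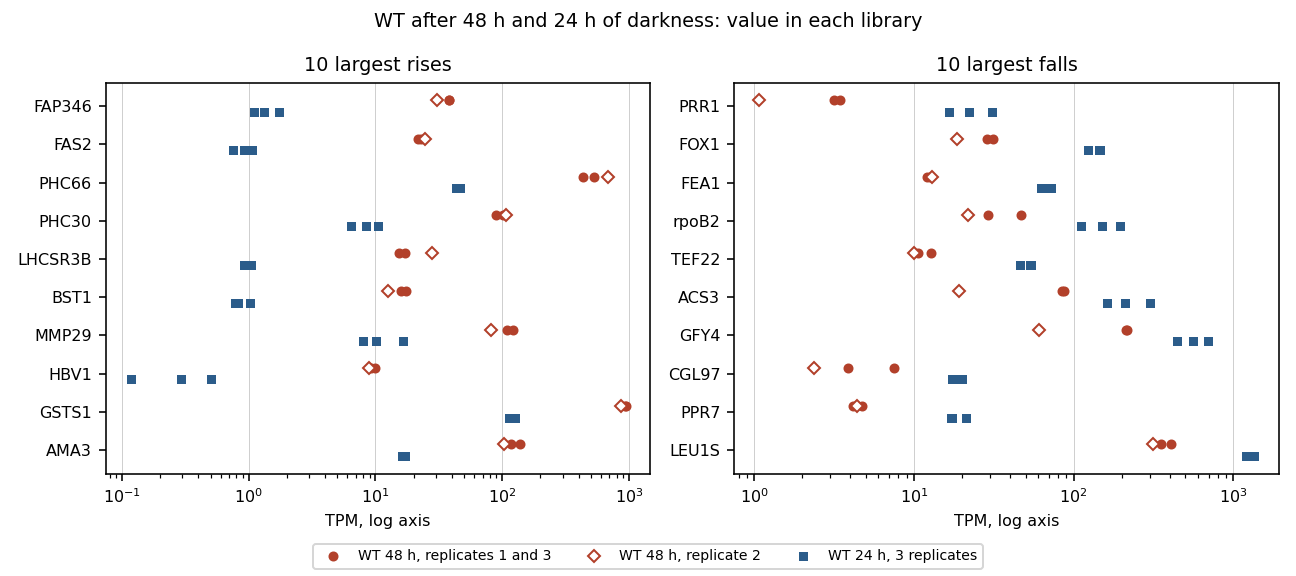
TPM on a log axis in each WT 48 h library and each WT 24 h library for the 10 largest rises and the 10 largest falls among the named genes with a symbol, with WT 48 h replicate 2 as an open diamond. The 48 h libraries of PHC66 average 549 TPM, against 44.5 TPM at 24 h, and those of FOX1 average 26.1 TPM, against 138 TPM.

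Photoprotection genes rose, in the absence of light at both times. Of the 19 genes of the list, all of which passed the filter on low values, 13 rose and 1 fell (without WT 48 h replicate 2, 13 and 2), against 16.8% and 24.7% of all genes, with a median of 1.08 against -0.10 over all genes. LHCSR3B, one of the near-identical genes for the stress-related antenna protein LHCSR3, had 15.3, 28.2 and 17.2 TPM at 48 h, against 0.911, 0.981 and 1.05 TPM at 24 h, a change of 3.37 ± 0.24 (limma, adjusted p = 1.97e-08). Its copy LHCSR3A had 3.32, 3.74 and 3.51 TPM at 48 h, against 0.119, 0.261 and 0.257 TPM at 24 h, a change of 1.90 ± 0.14 (limma, adjusted p = 2.36e-08). How the reads of the 2 copies were divided is not given in the sources used here, so the level of each copy is uncertain. In both every 48 h library lay above every 24 h library, and replicate 2 was the highest.

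PSBS1 and PSBS2, the genes for the photosystem II protein PSBS that takes part in heat dissipation, moved the same way from levels near 0. PSBS1 had 5.37, 8.88 and 6.53 TPM at 48 h, against 0.642, 0.292 and 0.718 TPM at 24 h, a change of 2.34 ± 0.24 (limma, adjusted p = 1.07e-06), and PSBS2 changed by 1.75 ± 0.17 (limma, adjusted p = 6.73e-07) to a mean of 3.35 TPM. ELIP3, an early light-induced protein of the thylakoid, had 144, 145 and 150.0 TPM at 48 h, against 24.1, 25.1 and 25.6 TPM at 24 h, a change of 2.51 ± 0.11 (limma, adjusted p = 8.30e-11). CVDE1, the violaxanthin de-epoxidase of this alga, had 113, 113 and 102 TPM at 48 h, against 48.3, 45.99 and 51.2 TPM at 24 h, a change of 1.16 ± 0.10 (limma, adjusted p = 3.16e-07). For PSBS1, ELIP3 and CVDE1 the groups did not overlap. The summed level of the photoprotection list was 0.0369 ± 0.00224% of all TPM at 0 h, 0.0325 ± 0.00137% at 24 h and 0.0632 ± 0.00132% at 48 h (SD, n = 3 each).

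The antenna and photosystem genes had no common direction. Of 21 light-harvesting antenna genes 2 rose and 7 fell. Without WT 48 h replicate 2 the counts were 7 and 6, and after rescaling 6 and 6, so no direction can be given for the antenna as a whole. LHCBM9, an antenna gene known to be induced by nutrient starvation, had 121, 110.3 and 114 TPM at 48 h, against 45.7, 50.3 and 50.4 TPM at 24 h, a change of 1.23 ± 0.15 (limma, adjusted p = 5.85e-06). LHCBM1, a major antenna protein of photosystem II, had 912, 341 and 812 TPM at 48 h, against 1253, 1394 and 1401 TPM at 24 h, a change of -1.09 ± 0.25 (limma, adjusted p = 0.00241). LHCBM9 was higher in all 48 h libraries and LHCBM1 lower, with WT 48 h replicate 2 the lowest for LHCBM1, whose change without it was -0.65 (limma, adjusted p = 0.00197). The antenna list held 5.32 ± 0.280% of TPM at 0 h, 1.02 ± 0.0117% at 24 h and 0.911 ± 0.0849% at 48 h (SD, n = 3 each), so its sum differed far more between 0 and 24 h than between 24 and 48 h.

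Among 29 nuclear photosystem and electron transport genes 4 rose and 11 fell as deposited, but 7 rose and 5 fell after rescaling, so the balance turned with the scaling. The rises include PSBS1 and PSBS2, which are described above with the photoprotection genes. Without WT 48 h replicate 2, 7 rose and 8 fell. Plastocyanin, PCY1, the copper protein that carries electrons to photosystem I, had 198, 110.3 and 188 TPM at 48 h, against 336, 362 and 335 TPM at 24 h, a change of -1.10 ± 0.19 (limma, adjusted p = 1.83e-04). ATPG1, a subunit of the chloroplast ATP synthase, averaged 959 ± 43.3 TPM at 48 h and 1434 ± 11.5 TPM at 24 h (SD, n = 3 each), a change of -0.58 ± 0.08 (limma, adjusted p = 3.46e-05). In neither gene did the groups overlap. In chlorophyll and tetrapyrrole synthesis 9 of 26 genes rose and 4 fell (without WT 48 h replicate 2, 11 and 4), but without WT 24 h replicate 1 the rises numbered 4. CHLD1, a subunit of magnesium chelatase, changed by 0.87 ± 0.15 (limma, adjusted p = 1.89e-04), and CHLM1, the methyltransferase that acts after it, changed by -1.41 ± 0.14 (limma, adjusted p = 1.18e-06), in opposite directions. CHLM1 had 20.1, 15.97 and 20.2 TPM at 48 h, against 49.4, 51.6 and 53.0 TPM at 24 h.

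In the carbon-concentrating mechanism rises outnumbered falls, and BST1 and BST3 rose. Of the 41 genes listed for the carbon-concentrating mechanism 39 passed the filter, 15 rose and 8 fell, with 18 and 8 without WT 48 h replicate 2 and a median of 0.18. BST1, a bestrophin-like channel of the thylakoid membrane, had 17.5, 12.6 and 15.99 TPM at 48 h, against 0.829, 0.781 and 1.02 TPM at 24 h, a change of 3.11 ± 0.12 (limma, adjusted p = 1.32e-11). BST3, its relative, had 82.9, 65.95 and 79.6 TPM at 48 h, against 11.4, 13.3 and 13.8 TPM at 24 h, a change of 2.48 ± 0.14 (limma, adjusted p = 1.26e-09). All 48 h values were above all 24 h values in both. LCIB1, for the LCIB protein that retains carbon dioxide around the pyrenoid, is not among the listed genes and does not enter their counts. It had 296, 162 and 268 TPM at 48 h, against 42.3, 58.8 and 46.5 TPM at 24 h, a change of 2.24 ± 0.19 (limma, adjusted p = 1.90e-07). In LCIB1 the lowest 48 h library was replicate 2, still above the 24 h libraries. LCI9, a low-CO2-inducible protein with starch-binding domains, changed by 2.19 ± 0.13 (limma, adjusted p = 2.21e-09) to 145 TPM, and CAH4, a mitochondrial carbonic anhydrase, by 1.26 ± 0.16 (limma, adjusted p = 1.08e-05) to 17.5 TPM.

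**Figure D2:**
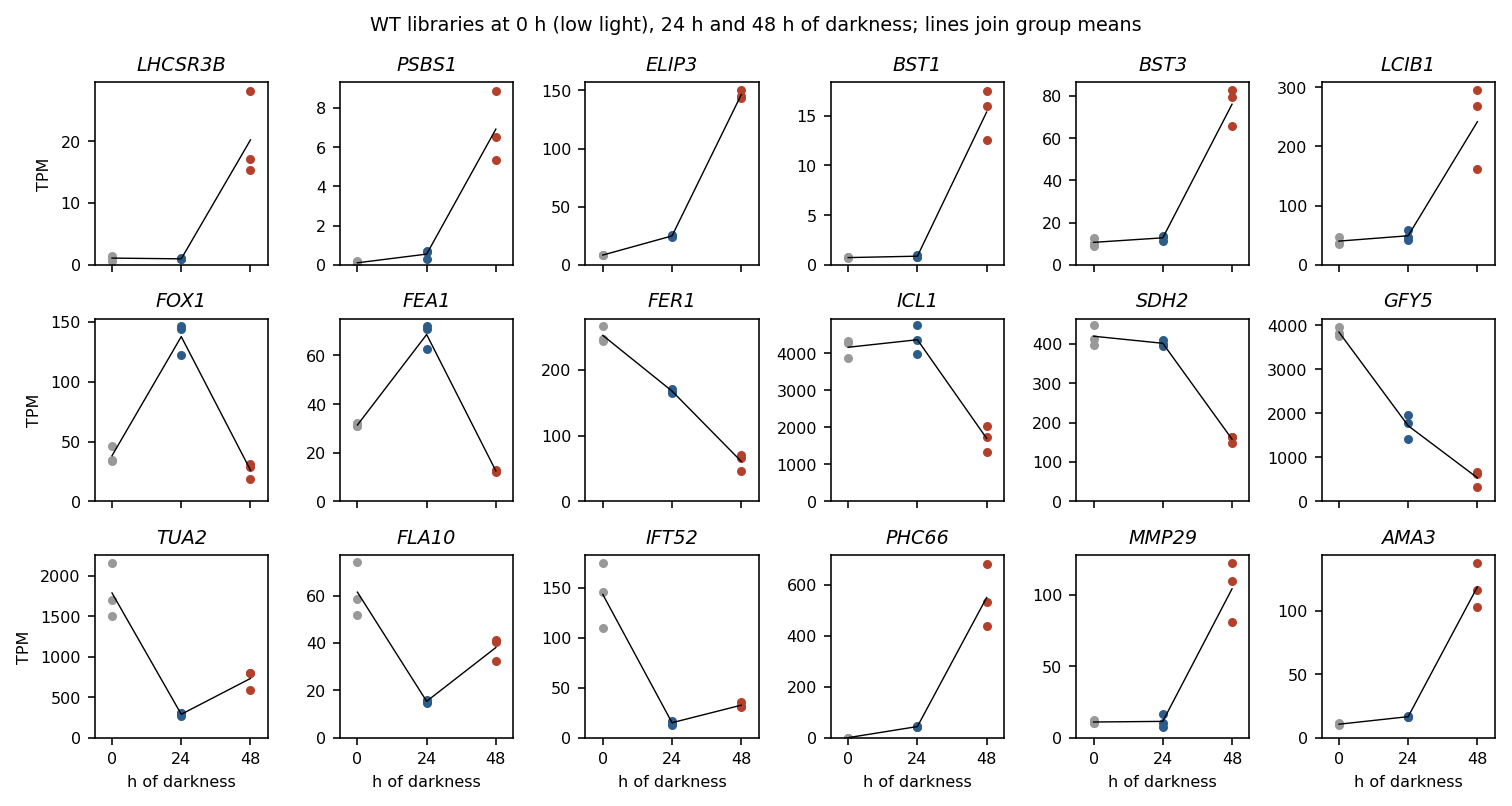
TPM in each WT library at 0, 24 and 48 h for 18 genes, with lines through the group means. LHCSR3B averages 1.10, 0.980 and 20.2 TPM at 0, 24 and 48 h, ICL1 4159.8, 4363 and 1702 TPM, and TUA2 1789, 292 and 734 TPM.

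The plot of levels at 0, 24 and 48 h sets the second day beside the first. The 2 days share the WT 24 h libraries, so their changes are not independent and no correlation between them is given. LHCSR3B, BST1 and BST3 lay at similar levels at 0 and 24 h and higher at 48 h, with first-day changes of -0.07, 0.11 and 0.25 beside second-day changes of 3.37, 3.11 and 2.48. PHC66 changed by 4.44 on the first day and by 3.57 on the second, a climb on both days. The alpha-tubulin gene TUA2 changed by -2.60 and then by 1.32, a part return. FOX1 changed by 1.83 and then by -2.38, with means of 38.2, 138 and 26.1 TPM at 0, 24 and 48 h. Over all genes 40.6% were higher and 25.8% lower at 24 h than at 0 h.

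Of the genes of intraflagellar transport 19 of 32 rose, and so did 3 of 5 tubulin genes, against 16.8% of all genes. The list, which includes the BBSome, the cargo adaptor of these trains, had 2 falls and a median of 0.65. The rises numbered 24 without WT 48 h replicate 2, and 15 without WT 48 h replicate 1, WT 48 h replicate 3 or WT 24 h replicate 1. FLA10, the motor subunit of the kinesin that drives the outward trains, had 41.2, 32.5 and 40.6 TPM at 48 h, against 14.6, 15.7 and 16.1 TPM at 24 h, a change of 1.24 ± 0.13 (limma, adjusted p = 1.92e-06). IFT52, a core protein of the trains, had 35.5, 30.7 and 32.02 TPM at 48 h, against 13.2, 14.97 and 17.4 TPM at 24 h, a change of 1.06 ± 0.16 (limma, adjusted p = 5.33e-05). The 48 h libraries of both genes lay above the 24 h libraries. IFT22 changed by 1.00 and IFT54 by 0.90. The list held 0.230 ± 0.0475% of TPM at 0 h, 0.0413 ± 0.00284% at 24 h and 0.0583 ± 0.00192% at 48 h (SD, n = 3 each), so at 48 h it was still far under its level before the dark.

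Of the 5 tubulin genes 3 rose and 0 fell (without WT 48 h replicate 2, 3 and 0). TUA2 had 803, 598 and 802 TPM at 48 h, against 268, 304 and 303 TPM at 24 h, a change of 1.32 ± 0.13 (limma, adjusted p = 1.07e-06), and TUA1, the other alpha-tubulin, changed by 1.21 ± 0.15 (limma, adjusted p = 1.04e-05). The beta-tubulin gene TUB1 had 325, 204 and 319 TPM at 48 h, against 109.6, 136 and 118 TPM at 24 h, a change of 1.19 ± 0.17 (limma, adjusted p = 4.31e-05). TUB2, the other beta-tubulin, had 98.7, 83.8 and 118 TPM at 48 h, against 94.7, 112 and 123 TPM at 24 h, a change of -0.14 ± 0.21 that missed the threshold (limma, adjusted p = 0.643), and its groups overlapped. TUA1 and TUA2, and TUB1 and TUB2, are near-identical in coding sequence, so the split between copies is uncertain. Together the tubulins held 0.686 ± 0.145% of TPM at 0 h, 0.0728 ± 0.00552% at 24 h and 0.157 ± 0.0134% at 48 h (SD, n = 3 each).

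Among 344 genes named as flagellar associated proteins 336 passed the filter, 86 rose and 22 fell, with a median of 0.23. Over all genes 16.8% rose and 24.7% fell. The number of rises was 49 without WT 24 h replicate 1 and 103 without WT 48 h replicate 2. The summed level of the list was not shown to move, with 1.71 ± 0.161% of TPM at 48 h and 1.79 ± 0.0459% at 24 h (SD, n = 3 each; exact permutation test, two-sided, p = 0.6). FAP381 and FAP265 rose by 1.66 and 1.47 on the log2 scale. Of 54 genes for axonemal dyneins, radial spokes and the central pair, which make flagella beat, 11 rose and 3 fell. The share of rises was near the 16.8% over all genes, and that of falls was under the 24.7%. Their rises numbered 7 when replicate 1 of either time was left out and 19 without WT 48 h replicate 2. RSP5, a radial spoke protein, had 12.9, 11.6 and 14.4 TPM at 48 h, against 6.51, 7.56 and 7.51 TPM at 24 h, a change of 0.77 ± 0.17 (limma, adjusted p = 0.00189). For the axoneme the number of rises therefore rests on which library is used.

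**Figure D3:**
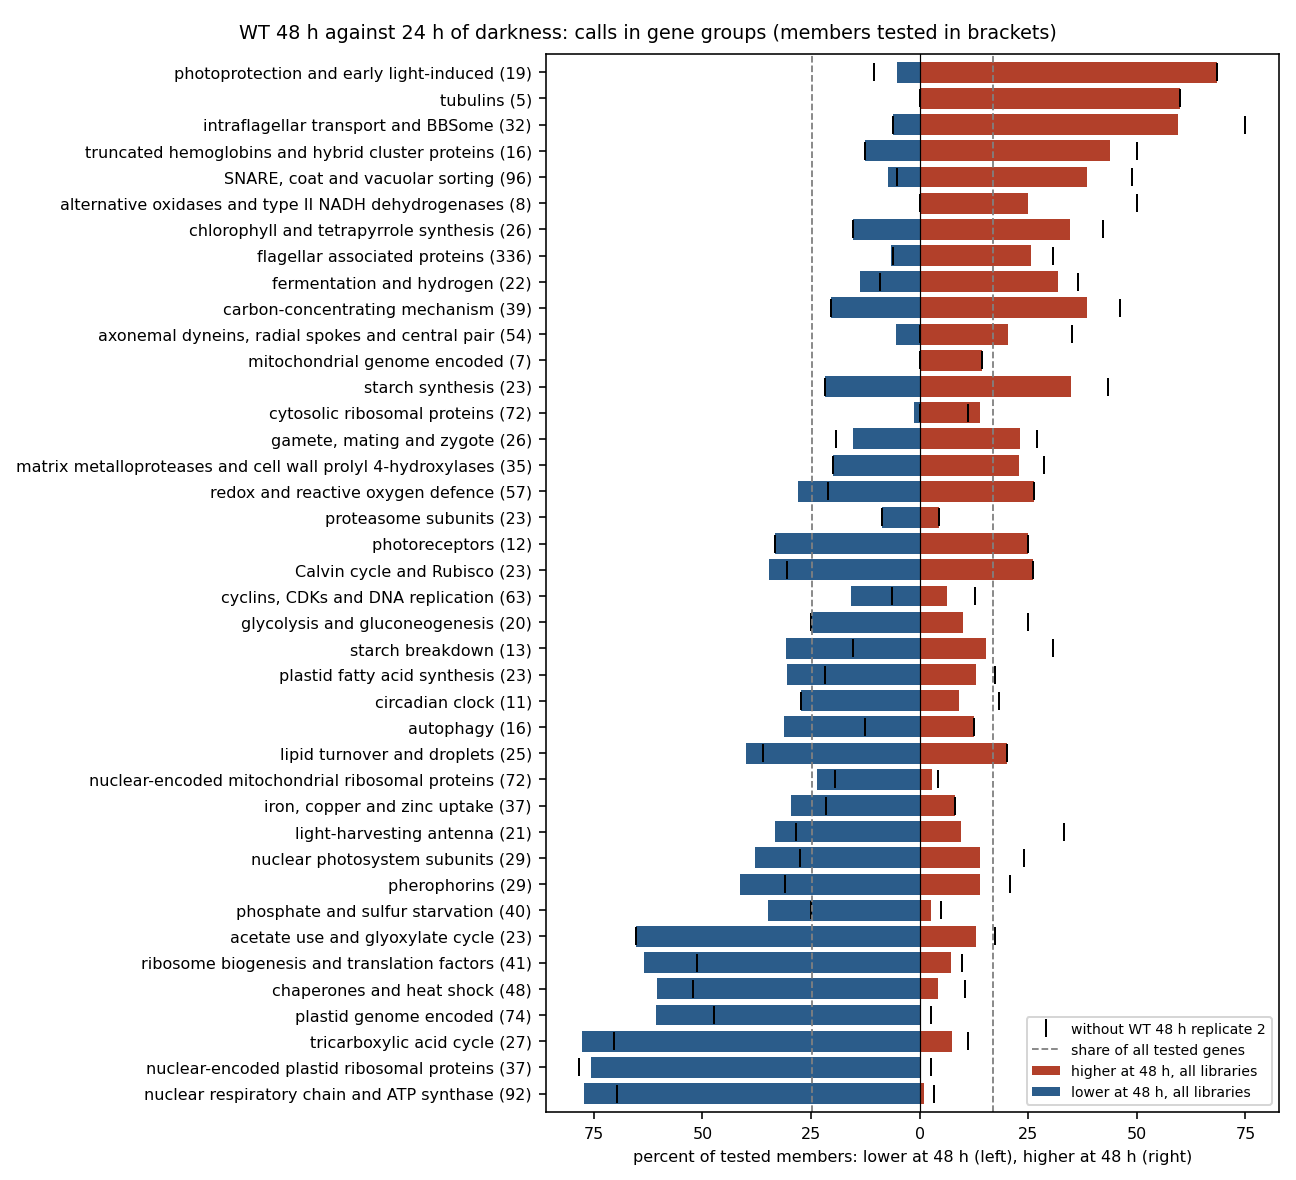
Percent of the tested members of the gene lists that were higher and lower at WT 48 h than at WT 24 h, with ticks for the values without WT 48 h replicate 2 and dashed lines at 16.8% and 24.7% for all genes. The histone and nitrogen lists, in which many members did not pass the filter, are left out. Photoprotection, with 13 of 19 genes higher, lies far to the right, and the tricarboxylic acid cycle, with 21 of 27 lower, far to the left.

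The cell wall and mating lists held large rises beside falls. Of 30 pherophorin genes 29 passed the filter, 4 rose and 12 fell, with 6 and 9 without WT 48 h replicate 2. The summed level of the list nonetheless was 0.133 ± 0.0122% of TPM at 48 h and 0.0622 ± 0.00435% at 24 h (SD, n = 3 each), carried by PHC66 and by PHC8, which changed by 2.04 ± 0.13 (limma, adjusted p = 7.08e-09) to 324 TPM. PHC4 had 4.70, 3.61 and 6.76 TPM at 48 h, against 11.2, 19.3 and 16.9 TPM at 24 h, a change of -1.48 ± 0.26 (limma, adjusted p = 2.65e-04). The list had a negative median, -0.25, and a higher sum at 48 h.

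Of 35 tested matrix metalloprotease and prolyl 4-hydroxylase genes, whose products digest and build the wall, 8 rose and 7 fell (without WT 48 h replicate 2, 10 and 7). These shares were near the 16.8% and 24.7% over all genes. MMP29, of the gametolysin family of wall proteases, had 122, 80.96 and 109 TPM at 48 h, against 7.94, 16.6 and 10.1 TPM at 24 h, a change of 3.10 ± 0.23 (limma, adjusted p = 4.05e-08). PFH3, a prolyl 4-hydroxylase, changed by -1.05 ± 0.19 (limma, adjusted p = 3.69e-04) to 13.5 TPM. MMP29 was higher in all 48 h libraries than in all 24 h libraries. Of 26 tested genes known from gametes, mating and zygotes 6 rose and 4 fell (without WT 48 h replicate 2, 7 and 5), beside the same shares over all genes. EZY3, known as an early zygote gene, had 718, 1021 and 849 TPM at 48 h, against 269, 252 and 271 TPM at 24 h, a change of 1.69 ± 0.15 (limma, adjusted p = 2.58e-07). EZY17, from the same class, had 391, 172 and 359.9 TPM at 48 h, against 56.9, 88.01 and 60.4 TPM at 24 h, a change of 2.09 ± 0.32 (limma, adjusted p = 7.90e-05). SAG1, the sexual agglutinin of plus gametes, had 0.871, 0.344 and 0.713 TPM at 48 h, against 1.55, 1.39 and 1.45 TPM at 24 h, a fall at a level under 2 TPM at both times (limma, adjusted p = 4.38e-04). Of other genes that define mating, named after their values were seen, FUS1, needed for gamete fusion, was at 0 in all 6 libraries, and GSM1, which starts the zygote programme, stayed under 0.1 TPM. Whether this strain carries FUS1 was not tested, so its 0 is no sign of the state of the cells. The list held 0.198, 0.222 and 0.221% of TPM in the 48 h libraries, against 0.124, 0.124 and 0.139% in the 24 h libraries, most of it in EZY3, EZY17 and NSG13.

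Storage and lipid genes moved both ways. AMA3, an alpha-amylase that breaks starch, had 116, 102 and 137 TPM at 48 h, against 16.2, 17.2 and 16.7 TPM at 24 h, a change of 2.75 ± 0.15 (limma, adjusted p = 1.26e-09). AMA1, another alpha-amylase, had 21.7, 9.45 and 20.2 TPM at 48 h, against 40.1, 41.05 and 45.8 TPM at 24 h, a change of -1.33 ± 0.25 (limma, adjusted p = 4.46e-04). The amylases moved in opposite directions, and neither gene's groups overlapped. Among all 13 starch breakdown genes 2 rose and 4 fell, and 4 rose and 2 fell without WT 48 h replicate 2, so the list has no direction. In starch synthesis 8 of 23 rose and 5 fell (without WT 48 h replicate 2, 10 and 5). ISA1, the isoamylase that trims amylopectin, and SSS3A, a soluble starch synthase, changed by 0.87 ± 0.11 and 0.80 ± 0.14 (limma, adjusted p = 1.14e-05 and 2.41e-04).

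MLDP1, the major protein of the lipid droplet surface, had 587, 900.5 and 628 TPM at 48 h, against 283, 278 and 307 TPM at 24 h, a change of 1.26 ± 0.12 (limma, adjusted p = 8.77e-07). KAT1, a 3-ketoacyl-CoA thiolase of fatty acid breakdown, had 98.03, 53.9 and 83.5 TPM at 48 h, against 182, 215 and 203 TPM at 24 h, a change of -1.38 ± 0.16 (limma, adjusted p = 4.49e-06). LCS3, a long-chain acyl-CoA synthetase, and ECH3, an enoyl-CoA hydratase, changed by -1.10 ± 0.11 and -1.03 ± 0.11 (limma, adjusted p = 1.35e-06 and 1.48e-06). The 48 h libraries of MLDP1 were all above, and those of KAT1 all below, the 24 h libraries. Over the whole lipid list 5 of 25 rose and 10 fell as deposited, 5 and 9 without WT 48 h replicate 2, and 8 and 8 after rescaling.

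Most genes of respiration fell. Of 92 nuclear genes for the respiratory chain and the mitochondrial ATP synthase 71 fell and 1 rose, with a median of -0.56. After rescaling 50 fell and 2 rose, and without WT 48 h replicate 2 64 fell and 3 rose. SDH2, the iron-sulfur subunit of succinate dehydrogenase, had 164, 148 and 162 TPM at 48 h, against 394, 400.0 and 409 TPM at 24 h, a change of -1.34 ± 0.09 (limma, adjusted p = 1.46e-08). CYC1, cytochrome c, had 225, 154 and 217 TPM at 48 h, against 449.7, 566 and 513 TPM at 24 h, a change of -1.37 ± 0.12 (limma, adjusted p = 3.46e-07). SDH4, which anchors succinate dehydrogenase in the membrane, changed by -1.42 ± 0.11 and ATP15, a subunit of the ATP synthase, by -0.84 ± 0.08 (limma, adjusted p = 4.60e-08 and 3.31e-07). For SDH2 and CYC1 every 48 h library was below every 24 h library, and replicate 2 was the lowest. The list held 1.42, 1.57 and 1.54% of TPM in the 48 h libraries, against 2.31, 2.23 and 2.44% in the 24 h libraries.

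No fall was called among the few genes for bypasses of the respiratory chain, beside 24.7% over all genes. NDA2, a type II NADH dehydrogenase, was nonetheless lower in all 48 h libraries, at 34.8 ± 2.21 TPM, against 43.9 ± 2.15 TPM at 24 h (SD, n = 3 each). Its change of -0.33 ± 0.14 missed the threshold (limma, adjusted p = 0.0704). Of 8 genes for alternative oxidases and type II NADH dehydrogenases, which pass electrons without pumping protons at the same sites, 2 rose and 0 fell, and 4 rose without WT 48 h replicate 2. AOX1, an alternative oxidase, had 185, 289 and 212 TPM at 48 h, against 129.7, 104 and 135 TPM at 24 h, a change of 0.87 ± 0.19 (limma, adjusted p = 0.00127). Of the 7 tested genes of the mitochondrial genome 1 rose, cob for cytochrome b, which had 9.55, 4.85 and 6.49 TPM at 48 h, against 3.85, 1.66 and 2.71 TPM at 24 h. The mitochondrial transcripts were all at low TPM, and whether the library preparation selected for poly(A) tails is not given in the sources used here.

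Most genes of the tricarboxylic acid cycle and of acetate use fell as well. In the cycle 21 of 27 tested genes fell and 2 rose (without WT 48 h replicate 2, 19 and 3), with a median of -0.62. CIS2, a citrate synthase of the glyoxylate cycle, had 140.2, 112 and 148 TPM at 48 h, against 395, 384 and 428 TPM at 24 h, a change of -1.59 ± 0.17 (limma, adjusted p = 1.56e-06). SCLA1, a subunit of succinyl-CoA ligase, changed by -1.24 ± 0.10 (limma, adjusted p = 6.64e-08) to 75.8 TPM. In acetate use and the glyoxylate cycle 15 of 23 fell and 3 rose (without WT 48 h replicate 2, 15 and 4), with a median of -0.65, and 0 rose without WT 48 h replicate 3. ICL1, isocitrate lyase, the first enzyme of the glyoxylate bypass, had 2033, 1338 and 1734 TPM at 48 h, against 3984, 4344 and 4760.0 TPM at 24 h, a change of -1.37 ± 0.13 (limma, adjusted p = 5.48e-07). The groups did not overlap for ICL1, whose level had been much the same at 0 and 24 h.

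The largest falls of this list were in the uptake and activation of acetate. GFY5, of a family of acetate transporter-like membrane proteins, had 662, 317 and 629 TPM at 48 h, against 1413, 1964 and 1780.0 TPM at 24 h, a change of -1.74 ± 0.21 (limma, adjusted p = 5.75e-06). GFY4, its neighbour in the same gene table, had 214, 60.8 and 211 TPM at 48 h, against 446, 693 and 557 TPM at 24 h, a change of -1.98 ± 0.31 (limma, adjusted p = 1.05e-04). ACS3, an acetyl-CoA synthetase, had 84.97, 19.2 and 87.3 TPM at 48 h, against 163, 302 and 209.5 TPM at 24 h, a change of -2.03 ± 0.40 (limma, adjusted p = 6.41e-04). In all 3 genes WT 48 h replicate 2 was the lowest library of all, and without it the changes were -1.40, -1.38 and -1.33, with each call kept. PCK1, phosphoenolpyruvate carboxykinase, the entry to gluconeogenesis, had 710.3, 503 and 675 TPM at 48 h, against 1127, 1258 and 1252 TPM at 24 h, a change of -0.96 ± 0.12 (limma, adjusted p = 8.11e-06). In the fermentation list 7 of 22 rose and 3 fell (without WT 48 h replicate 2, 8 and 2), with 4 rises without WT 48 h replicate 3. ADH1, the dual aldehyde and alcohol dehydrogenase, had 194, 134 and 207 TPM at 48 h, against 73.4, 85.1 and 76.1 TPM at 24 h, a change of 1.16 ± 0.16 (limma, adjusted p = 2.52e-05).

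**Figure D4:**
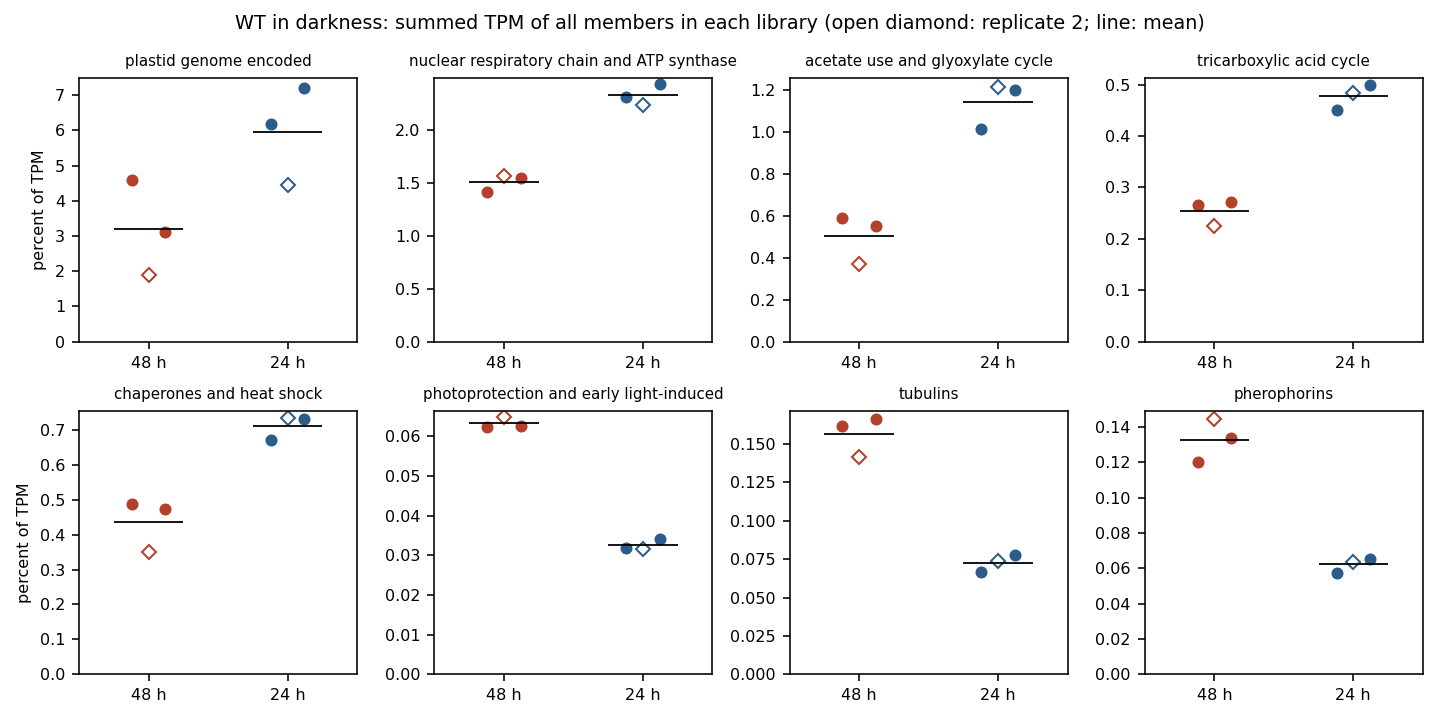
Summed TPM of 8 gene lists as percent of the library, for WT 48 h at the left and WT 24 h at the right, with each library as a point, replicate 2 of each group as an open diamond and the group mean as a line. The respiratory list averages 1.51% at 48 h, against 2.33% at 24 h, and the plastid genome 3.20% against 5.95%.

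Of 74 genes of the chloroplast's own genome 45 fell and 0 rose, with a median of -1.03. Without WT 48 h replicate 2 35 fell and 2 rose, with a median of -0.65. The falls numbered 34 without WT 24 h replicate 3 and 59 without WT 48 h replicate 1. rpoB2, a part of the beta subunit of the plastid RNA polymerase, had 46.99, 21.7 and 29.3 TPM at 48 h, against 150.2, 111 and 196 TPM at 24 h, a change of -2.22 ± 0.35 (limma, adjusted p = 9.66e-05). All 3 of its 48 h libraries lay below the 24 h libraries, with a wide spread within each group. The plastid genome held 4.59, 1.89 and 3.11% of TPM in the 48 h libraries, against 6.19, 4.45 and 7.22% in the 24 h libraries (exact permutation test, two-sided, p = 0.2; the smallest p that 3 against 3 libraries allow is 0.1). The groups overlapped in that sum, since WT 48 h replicate 1 lay above WT 24 h replicate 2, and WT 48 h replicate 2 was the lowest library.

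Nuclear genes of the plastid's translation fell as well. Of 37 nuclear genes for plastid ribosomal proteins 28 fell and 0 rose (without WT 48 h replicate 2, 29 and 1), with a median of -0.59. After rescaling 20 fell and 0 rose, with a median of -0.44. PRPL11, of the large subunit, had 22.7, 14.4 and 20.4 TPM at 48 h, against 44.8, 39.2 and 43.7 TPM at 24 h, a change of -1.13 ± 0.15 (limma, adjusted p = 2.43e-05). Of the nuclear genes for mitochondrial ribosomal proteins 17 of 72 fell and 2 rose (without WT 48 h replicate 2, 14 and 3), a share of falls near the 24.7% over all genes. In ribosome biogenesis and translation factors 26 of 41 fell and 3 rose (without WT 48 h replicate 2, 21 and 4), with a median of -0.56. NOP56 and NOP1, core proteins of the particles that modify ribosomal RNA, had 14.3, 7.73 and 14.1 TPM and 54.3, 46.5 and 61.2 TPM at 48 h, against 34.7, 43.5 and 39.98 TPM and 153, 156 and 171 TPM at 24 h. Their changes were -1.67 ± 0.26 and -1.56 ± 0.22 (limma, adjusted p = 8.41e-05 and 2.87e-05). The summed level of this list was nonetheless higher, 3.38 ± 0.165% of TPM at 48 h and 2.88 ± 0.122% at 24 h (SD, n = 3 each). It holds the abundant elongation and initiation factors EEF1A1 and EIF4A, named after their values were seen, which rose by 0.47 and 0.60 on the log2 scale.

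The cytosolic ribosomal proteins, the most abundant list, were not shown to move. Of 72 genes 10 rose and 1 fell (without WT 48 h replicate 2, 8 and 0), with a median of 0.04, and without WT 24 h replicate 2 the rises numbered 2. RPL10, of the large subunit, had 10830.0, 11660.0 and 11080.0 TPM at 48 h, against 8147, 7277 and 6899 TPM at 24 h, a change of 0.59 ± 0.11 (limma, adjusted p = 3.32e-04). The list held 34.9, 41.9 and 36.8% of TPM in the 48 h libraries, against 37.6, 36.98 and 33.4% in the 24 h libraries. The difference of the means, 1.92 percentage points, missed the threshold (exact permutation test, two-sided, p = 0.6, with 0.1 the smallest possible). The highest value belonged to WT 48 h replicate 2, and without that library the difference was -0.113 percentage points, so its direction turned.

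Most chaperone genes fell. Of 52 genes 48 passed the filter, 29 fell and 2 rose, with a median of -0.57 and 25 falls and 5 rises without WT 48 h replicate 2. CPN60B1, a subunit of the chloroplast chaperonin that folds Rubisco, had 19.3, 18.7 and 25.7 TPM at 48 h, against 64.1, 59.8 and 71.3 TPM at 24 h, a change of -1.58 ± 0.12 (limma, adjusted p = 5.89e-08). HSP90A, the cytosolic HSP90, had 182, 103 and 161 TPM at 48 h, against 317, 403 and 378 TPM at 24 h, a change of -1.33 ± 0.17 (limma, adjusted p = 1.00e-05). HSP90C, its chloroplast relative, and HSP22A, a small heat shock protein, changed by -1.25 ± 0.14 and -1.76 ± 0.30 (limma, adjusted p = 3.44e-06 and 1.86e-04). In all 4 genes the 48 h libraries lay below the 24 h libraries. BIP2, the HSP70 of the endoplasmic reticulum, named after its values were seen, had 257, 179.7 and 255 TPM at 48 h, against 104, 116 and 97.7 TPM at 24 h, a change of 1.10 ± 0.18 (limma, adjusted p = 1.60e-04), one of the 2 rises.

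In the secretory and endomembrane system more genes rose than fell. Of 96 genes for SNARE proteins, vesicle coats and vacuolar sorting 37 rose and 7 fell, against 16.8% and 24.7% of all genes. Their median was 0.27, and leaving out 1 library gave between 27 and 47 rises. After rescaling 52 rose and 5 fell, against 22.5% and 19.7% of all genes. SYP71, a syntaxin that takes part in membrane fusion, had 391, 342 and 382 TPM at 48 h, against 162, 181 and 183 TPM at 24 h, a change of 1.08 ± 0.13 (limma, adjusted p = 7.28e-06). SEC1, a regulator of SNARE assembly, had 48.7, 51.5 and 50.98 TPM at 48 h, against 24.8, 26.2 and 29.1 TPM at 24 h, a change of 0.90 ± 0.11 (limma, adjusted p = 7.28e-06). RAB7, a small GTPase of late endosomes and the vacuole, had 101, 117 and 109.6 TPM at 48 h, against 185, 179 and 193 TPM at 24 h, a change of -0.76 ± 0.09 (limma, adjusted p = 7.13e-06). SYP71 and SEC1 lay higher and RAB7 lower in all 48 h libraries. In autophagy 2 of 16 genes rose and 5 fell, but 2 and 2 without WT 48 h replicate 2. ATG7, the enzyme that activates the ubiquitin-like autophagy proteins, changed by -1.01 ± 0.17 (limma, adjusted p = 1.63e-04) and the lipid kinase gene VPS34 by -0.71 ± 0.21 (limma, adjusted p = 0.0123), the second losing its call without that library (adjusted p = 0.0594).

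Over the 37 tested of 44 genes for iron, copper and zinc uptake 11 fell and 3 rose, and 8 fell without WT 48 h replicate 2, shares near the 24.7% and 19.8% of all genes that fell. A few iron genes fell steeply. FEA1, a secreted iron-binding protein, had 12.1, 12.9 and 12.6 TPM at 48 h, against 62.6, 71.03 and 72.1 TPM at 24 h, a change of -2.36 ± 0.20 (limma, adjusted p = 1.95e-07). FTR1, the iron permease that works with FOX1, had 13.1, 10.04 and 13.8 TPM at 48 h, against 42.4, 45.7 and 50.05 TPM at 24 h, a change of -1.83 ± 0.16 (limma, adjusted p = 2.84e-07). FER1, ferritin, which stores iron, had 66.7, 45.7 and 70.4 TPM at 48 h, against 166, 167 and 172 TPM at 24 h, a change of -1.47 ± 0.13 (limma, adjusted p = 3.87e-07). All 3 of these genes were lower in every 48 h library than in any 24 h library. TEF22, the neighbour of FEA1 in the gene table, changed by -2.10 ± 0.19 (limma, adjusted p = 3.66e-07) to 11.2 TPM, and whether the neighbours share reads was not tested.

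In sulfur and phosphate starvation 14 of 40 tested genes fell and 1 rose (without WT 48 h replicate 2, 10 and 2). SLT2, a sulfate transporter of the plasma membrane, had 51.1, 24.8 and 49.8 TPM at 48 h, against 101, 128 and 114 TPM at 24 h, a change of -1.49 ± 0.23 (limma, adjusted p = 6.98e-05). SULP3, a component of chloroplast sulfate uptake, had 12.2, 8.55 and 11.4 TPM at 48 h, against 28.9, 33.6 and 34.7 TPM at 24 h, a change of -1.52 ± 0.19 (limma, adjusted p = 9.45e-06). Both sulfate genes were lower in all 48 h libraries.

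Of 48 nitrogen genes only 32 passed the filter on low values, so their counts of 12 rises and 4 falls (without WT 48 h replicate 2, 13 and 2) describe the expressed members only. AMT1A, an ammonium transporter, had 10.7, 6.97 and 9.57 TPM at 48 h, against 0.591, 0.834 and 0.469 TPM at 24 h, a change of 2.61 ± 0.19 (limma, adjusted p = 2.26e-08). UOX1, urate oxidase, which opens the use of purines as a nitrogen source, had 132, 167 and 141 TPM at 48 h, against 64.9, 60.2 and 66.95 TPM at 24 h, a change of 1.18 ± 0.11 (limma, adjusted p = 4.48e-07). NIT3, needed for the cofactor of nitrate reductase, changed by 0.89 ± 0.13 (limma, adjusted p = 6.25e-05). For AMT1A and UOX1 the groups did not overlap. The sum over all 48 members was 0.278 ± 0.0544% of TPM at 48 h and 0.264 ± 0.0159% at 24 h (SD, n = 3 each; exact permutation test, two-sided, p = 0.7), with the lowest value in WT 48 h replicate 2.

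Cell cycle genes had low levels and few calls. Of 63 tested genes for cyclins, their kinases and DNA replication 4 rose and 10 fell as deposited, 11 rose and 7 fell after rescaling, and 8 rose and 4 fell without WT 48 h replicate 2, so the balance turned with both. CYCB1, the mitotic cyclin B, had 5.28, 4.28 and 4.89 TPM at 48 h, against 14.8, 15.1 and 19.6 TPM at 24 h, a change of -1.58 ± 0.22 (limma, adjusted p = 2.90e-05). MAD2, of the spindle checkpoint, is not in this list and does not enter its counts. It had 85.4, 92.9 and 77.9 TPM at 48 h, against 15.3, 13.7 and 16.5 TPM at 24 h, a change of 2.42 ± 0.13 (limma, adjusted p = 8.37e-10). CYCB1 was lower and MAD2 higher in all 48 h libraries. HBV1, a variant histone H2B, had 9.22, 8.82 and 9.97 TPM at 48 h, against 0.506, 0.294 and 0.117 TPM at 24 h, a change of 2.99 ± 0.21 (limma, adjusted p = 1.88e-08). Only 22 of 124 histone genes passed the filter, and many are near-identical copies. Of those tested 12 rose and 1 fell (without WT 48 h replicate 2, 12 and 2), with a median of 0.77, which describes the tested genes and not the list. The sum over all 124 was 0.0441 ± 0.00562% of TPM at 48 h and 0.0461 ± 0.00318% at 24 h (SD, n = 3 each), and the smallest p that an exact permutation test of this sum allows is 0.1 (two-sided, p = 0.6).

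Of 11 circadian clock genes 1 rose and 3 fell (without WT 48 h replicate 2, 2 and 3). ROC59 had 12.6, 10.8 and 12.3 TPM at 48 h, against 41.9, 36.9 and 45.5 TPM at 24 h, a change of -1.71 ± 0.14 (limma, adjusted p = 1.11e-07), without overlap. ROC75 had 8.44, 2.47 and 6.69 TPM at 48 h, against 1.82, 2.52 and 1.95 TPM at 24 h, a change of 1.03 ± 0.25 (limma, adjusted p = 0.00296). In ROC75 replicate 2 of the 48 h group lay among the 24 h libraries. Among 12 tested photoreceptor genes 3 rose and 4 fell (without WT 48 h replicate 2, 3 and 4). The channelrhodopsin gene CHR2 had 13.4, 9.96 and 13.7 TPM at 48 h, against 5.71, 6.39 and 7.06 TPM at 24 h, a change of 0.85 ± 0.15, and CHR1, the other channelrhodopsin of the eyespot, had 102, 77.2 and 109 TPM at 48 h, against 140.4, 158 and 162 TPM at 24 h, a change of -0.68 ± 0.13 (limma, adjusted p = 2.37e-04 and 5.64e-04). The channelrhodopsins therefore moved in opposite directions. DCRY1, a DASH-type cryptochrome, rose by 0.98 and PCRY1, the plant-type cryptochrome, fell with a change of -0.89.

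The second-day change was then set beside that of tpt10b, in which the same interval was measured with 3 libraries at each time. The difference of the changes, (WT 48 h minus WT 24 h) minus (tpt10b 48 h minus tpt10b 24 h), passed the threshold for 43.1% of genes, 6.14% with a higher and 36.9% with a lower change in WT, and without WT 48 h replicate 2 for 4.77% and 31.0%. After rescaling 20.6% were higher and 21.0% lower, and the median over all genes was -0.36 as deposited and 0.03 after rescaling, so the direction of the bulk of these differences turned with the scaling. In WT 16.8% of genes rose and 24.7% fell, and in tpt10b 46.5% rose and 20.2% fell. The tpt10b 24 h libraries held reads at 15490 to 16231 genes, and correlations across genes between them were 0.975 to 0.981, so the difference of the changes leans on another group that stands apart, and that group's part in it was not tested. The 3 replicates of tpt10b at 48 h carry the numbers 4 to 6 in their descriptions, unlike the other groups, and whether that marks another batch cannot be told apart from the genotype and time of that group.

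In starch breakdown and acetate use, among other lists, the second day differed between the genotypes under both scalings. For the 11 circadian clock genes the change was lower in WT for 8 and higher for 1, and for 7 and 2 after rescaling. For the 7 tested genes of the mitochondrial genome it was lower for 7 and higher for 0, and for 4 and 0 after rescaling. The starch breakdown list had a median of -0.28 in WT and 0.98 in tpt10b, with the change lower in WT for 10 of 13 genes and higher for 0, and for 7 and 0 after rescaling. Without WT 48 h replicate 2 the WT median of starch breakdown was 0.19, so its direction in WT rests on that library, while the change was lower in WT for 8 genes and higher for 0. The acetate list had a median of -0.65 in WT and -0.04 in tpt10b, with the change lower in WT for 14 of 23 genes and higher for 1, and for 11 and 4 after rescaling. These counts stand beside 36.9% lower and 6.14% higher over all genes, or 21.0% and 20.6% after rescaling. ICL1 averaged 1702 ± 349 TPM at 48 h and 4363 ± 388 TPM at 24 h in WT, and 3361 ± 122 TPM at 48 h and 3424 ± 478 TPM at 24 h in tpt10b (SD, n = 3 each). Its change was -1.37 in WT and -0.02 in tpt10b, a difference of -1.36 ± 0.18 (limma, adjusted p = 1.38e-04).

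For the respiratory and endomembrane lists the difference turned or levelled with the scaling. The respiratory list had a median of -0.56 in WT and -0.44 in tpt10b, with the change lower in WT for 35 and higher for 23 of 92 genes, but lower for 12 and higher for 42 after rescaling. The endomembrane list had 0.27 in WT and 0.89 in tpt10b, with 47 of 96 lower and 1 higher, and 20 and 16 after rescaling. The photoprotection list had 1.08 in WT and 0.96 in tpt10b, and the intraflagellar transport list 0.65 and 0.83. The plastid genome had -1.03 in WT and -1.05 in tpt10b, with the change higher in WT for 8 of 74 genes and lower for 1. Without WT 48 h replicate 2 its WT median was -0.65 and the change was higher in WT for 20 and lower for 0, and after rescaling for 28 and 0. BST1 changed by 3.11 in WT and 2.42 in tpt10b, a difference of 0.69 ± 0.17 (limma, adjusted p = 0.00433). FOX1 changed by -2.38 in WT and -1.25 in tpt10b, a difference of -1.14 ± 0.27 (limma, adjusted p = 0.00323). For BST1 and FOX1 the second day thus went the same way in both genotypes, and for FOX1 further in WT. BST1 averaged 0.877 TPM at 24 h and 15.4 TPM at 48 h in WT, and 0.390 and 6.45 TPM in tpt10b. Its 24 h means lay under the 1 TPM added before the logarithm, so its difference does not show a larger fold change in WT.

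**Figure D5:**
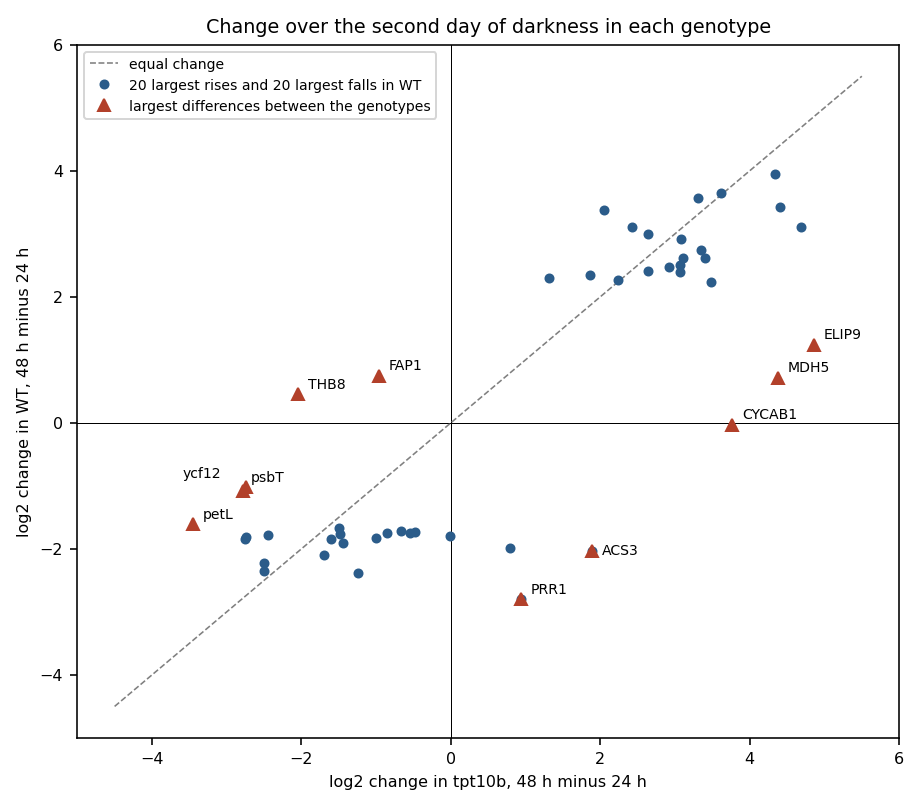
Second-day log2 change, 48 h minus 24 h, in WT (vertical axis) and in tpt10b (horizontal axis), with circles for the 20 largest rises and 20 largest falls in WT, triangles for the 10 largest differences between the genotypes and a dashed line at equal change. ACS3 lies at -2.03 in WT and 1.88 in tpt10b, and LHCSR3B at 3.37 in WT and 2.06 in tpt10b.

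Genes without a symbol were among the largest changes and cannot be given a role. Cre17.g719950 had 102, 83.8 and 100.3 TPM at 48 h, against 2.67, 2.76 and 2.09 TPM at 24 h, a change of 4.78 ± 0.15 (limma, adjusted p = 1.04e-12). Cre16.g801890 had 50.2, 27.7 and 50.2 TPM at 48 h, against 244, 253 and 254 TPM at 24 h, a change of -2.57 ± 0.16 (limma, adjusted p = 4.12e-09). Cre11.g801230 had 0.0633, 0 and 0.0999 TPM at 48 h, against 8.64, 13.04 and 9.98 TPM at 24 h, so it was near or at 0 in the whole 48 h group. None of the 3 overlapped between the groups, which was a condition for naming them.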

How the data were processed

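Total RNA was sequenced from 18 libraries after random hexamer priming, per the labels' protocols. The authors deposited TPM, 1 column a library, each summing to 1e+06 over 17693 genes of annotation 6.1. HISAT2 2.0.5 and StringTie 1.3.3b are named in the submitters' processing notes with no role, and the counter, strand setting and poly(A) selection are not given in the sources used here, so overlapping genes cannot be told apart. Lengths are multiples of 3 for 94.4% of genes. TPM times length came in steps of 1 read for 100% of the entries (tolerance 0.01 reads), which gave the depth, 59603478 to 87965038 reads. Counts so recovered entered only limma-voom. Genes reaching 1 TPM in 3 libraries were fitted as log2(TPM + 1) in 6 group means with limma 3.58.1 (R 4.3.3; trend, Benjamini-Hochberg, threshold 0.05), checked on simulated data. Rescaling means median-of-ratios scaling of TPM. A summed share used an exact permutation test. Samples were not paired by replicate number.

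The 42 gene lists and the comparison were chosen with earlier results of these data known. Named genes are the 20 largest rises and falls with a unique symbol, no overlap and a mean of 5 TPM or more at the higher time, up to 4 members a list by adjusted p, 5 genes each way for the genotype difference and up to 3 loci without a symbol; 1 of them is not reported here. RefSeq's gene table (assembly v5.5) matched 15386 of 17693 identifiers and gave neighbours only. Alternatives were other pseudocounts (0.1 and 5), filters, scalings, quantile normalisation, array weights, a replicate block and leaving out each library. Leaving out libraries other than WT 48 h replicate 2 for the lists was added after the data were seen.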

Additional observations from a re-analysis of the deposited data

Results flagged for a closer look

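The second-day change, 48 h minus 24 h, differed between WT and tpt10b for the 10 genes below, the 5 with the largest difference in each direction among genes with a symbol, each by limma's test of the difference itself. The tpt10b 24 h and 48 h libraries enter all of these values, and the part of the number of genes detected at 24 h and of the replicate numbers at 48 h was not tested.

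ACS3, acetyl-CoA synthetase, changed by -2.03 in WT and 1.88 in tpt10b, a difference of -3.91 ± 0.56 (adjusted p = 1.67e-04). CYCAB1, an A or B type cyclin, changed by -0.03 and 3.77, a difference of -3.80 ± 0.55 (adjusted p = 1.70e-04), and its own change in WT missed the threshold (adjusted p = 0.962). PRR1 changed by -2.80 and 0.94, a difference of -3.74 ± 0.40 (adjusted p = 5.11e-05). MDH5, a malate dehydrogenase, changed by 0.71 and 4.38, a difference of -3.67 ± 0.55 (adjusted p = 1.94e-04), and its own change in WT missed the threshold (adjusted p = 0.156) but was 1.36 without WT 48 h replicate 2 (adjusted p = 5.19e-04). ELIP9, an early light-induced protein, changed by 1.24 and 4.86, a difference of -3.62 ± 0.48 (adjusted p = 1.25e-04). In all 5 of these WT 48 h replicate 2 was the lowest WT 48 h library, and without it the differences were -3.21, -3.20, -3.39, -3.02 and -3.04, all still past the threshold.

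In the other direction, THB8, a truncated hemoglobin, changed by 0.45 in WT and -2.04 in tpt10b, a difference of 2.49 ± 0.27 (adjusted p = 5.45e-05). The change of THB8 in WT itself missed the threshold (adjusted p = 0.0723) but was 0.68 without WT 48 h replicate 2 (adjusted p = 0.00563). The plastid genes petL, ycf12 and psbT, which encode small subunits of the cytochrome complex and photosystem II, fell in both genotypes. Their differences were 1.85 ± 0.45, 1.72 ± 0.40 and 1.70 ± 0.45 (adjusted p = 0.00372, 0.00305 and 0.00630). FAP1, a flagellar associated protein, changed by 0.74 in WT and -0.96 in tpt10b, a difference of 1.70 ± 0.37 (adjusted p = 0.00170). Its own change in WT lost its call without WT 48 h replicate 2 (adjusted p = 0.0699). psbT also lost its WT call there (adjusted p = 0.0501).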

How the results depend on the processing

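With genes averaging at least 5 TPM the calls for WT 48 h against 24 h numbered 4044 of 8525 tested, and those for the difference from tpt10b 3752. Leaving out 1 WT library gave 4859 to 6022 calls for WT 48 h against 24 h, and leaving out 1 library of either genotype gave 5207 to 7017 for the difference. The share of ribosomal proteins differed by -0.113 to 3.41 percentage points, and WT 48 h replicate 2 alone turned its sign. Replicate numbers did not pair the samples (correlations of deviations -0.39, -0.51 and -0.11, and no sample correlated best with its own number), and the replicate block gave 5876 and 6132 calls. A fit on only the groups compared gave 4288 and 5478, and limma-voom on recovered reads 6346 and 5799. Of 3698 values for 196 named genes under these alternatives 3645 kept direction and call, 33 lost the call, 20 gained it and 0 reversed, and the cause was not tested. In the fit on only the groups compared ELIP9, ROC75, NDA7, RSP20, RPL6, RPS10, RPS2, TOR1, ROC66 and ycf12 lost their calls. FAP1 also lost its call without WT 48 h replicate 3, WT 24 h replicate 1 or WT 24 h replicate 2. Recovered reads numbered 59603478 to 78823417 in these libraries, and genes that did not reach 1 TPM in 3 libraries were not tested.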

Other observations

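Defences against oxidants and electrophiles split by enzyme. Of 59 redox genes 57 passed the filter, 15 rose and 16 fell (without WT 48 h replicate 2, 15 and 12), and the falls numbered 9 without WT 24 h replicate 2. GPX5, a glutathione peroxidase, had 1371, 1919 and 1460.0 TPM at 48 h, against 335, 292 and 350.0 TPM at 24 h, a change of 2.27 ± 0.11 (limma, adjusted p = 3.05e-10). GSTS1, a glutathione S-transferase, had 922, 869.5 and 938 TPM at 48 h, against 118, 112 and 126 TPM at 24 h, a change of 2.92 ± 0.25 (limma, adjusted p = 1.42e-07). CAT1, catalase, had 81.8, 55.6 and 68.2 TPM at 48 h, against 139, 173 and 156 TPM at 24 h, a change of -1.19 ± 0.13 (limma, adjusted p = 3.17e-06). GPX5 and GSTS1 were higher and CAT1 lower in all 48 h libraries. The redox list held 0.794 ± 0.0271% of TPM at 48 h and 0.577 ± 0.0190% at 24 h (SD, n = 3 each).

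Of 16 tested genes for truncated hemoglobins and hybrid cluster proteins 7 rose and 2 fell (without WT 48 h replicate 2, 8 and 2). HCP3, a hybrid cluster protein, had 20.7, 14.4 and 22.2 TPM at 48 h, against 8.71, 10.1 and 10.4 TPM at 24 h, a change of 0.89 ± 0.18 (limma, adjusted p = 0.00105). In the Calvin cycle 6 of 23 rose and 8 fell (without WT 48 h replicate 2, 6 and 7), with FBA1, fructose-bisphosphate aldolase, at 1655, 1251 and 1608 TPM at 48 h, against 844, 859 and 871 TPM at 24 h, and TRK1, transketolase, at 259, 201 and 257 TPM at 48 h, against 490.4, 468 and 552 TPM at 24 h. Aldolase was thus higher and transketolase lower in all 48 h libraries. Glycolysis and gluconeogenesis had 2 rises and 5 falls of 20, or 5 and 5 without WT 48 h replicate 2. Plastid fatty acid synthesis had 3 rises and 7 falls of 23 (without WT 48 h replicate 2, 4 and 5), or 5 and 3 after rescaling, among them a rise of FAT1, an acyl-ACP thioesterase, by 1.67 on the log2 scale and a change of -0.73 in ACP2, an acyl carrier protein. Of 23 proteasome genes 1 rose and 2 fell (without WT 48 h replicate 2, 1 and 2).

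In WT 48 h replicate 2 the most abundant gene stood at 23795 TPM, against 15562.8 and 15799.6 TPM in the other WT 48 h libraries, and in the tpt10b 24 h libraries that value was 21370.8 to 22706.1 TPM. The correlation across genes of WT 48 h replicate 2 was 0.963 and 0.970 with the other WT 48 h libraries, 0.956 to 0.960 with the tpt10b 48 h libraries and 0.918 to 0.949 with the tpt10b 24 h libraries. WT 48 h replicates 1 and 3 had 0.980 to 0.991 with the tpt10b 48 h libraries and 0.885 to 0.938 with the tpt10b 24 h libraries.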
